A study of Chelonia mydas with 15 samples.

Results

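The embryos of the green sea turtle, Chelonia mydas, stop developing inside the oviduct and start again once the egg is laid and reaches air. RNA sequencing counts of whole embryos from freshly laid eggs were compared with those of embryos kept for 36 h in air. The comparison used 10 of the 15 libraries of the series, chosen by their sample labels alone: 5 labelled as taken at 0 h and 5 labelled as normal after 36 h. Freshly laid embryos were taken out within 1 h of laying. The eggs of the other group, called normoxia here, lay in sand at 26 to 28 °C and at an oxygen tension of about 159 mmHg before the embryos were removed at 36 h. All embryos were frozen in liquid nitrogen. The other 5 libraries came from eggs kept for 36 h below 8 mmHg of oxygen in nitrogen, and here they add only to the estimate of the spread between libraries. The labels tie no library to a female or a clutch, so a p-value here reflects no more than how far these libraries vary, which may be partly technical. In whole embryos, fewer cells of a type and less RNA per cell cannot be told apart.

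A turtle egg is laid at the gastrula stage, when cells move in through the blastopore to form mesoderm and endoderm. At its rim an organizer, marked in vertebrates by genes such as GSC and CHRD, secretes inhibitors of the BMP and Wnt signals and so sets up the body axes. Over the following stages paraxial mesoderm is laid down and the ectoderm splits into neural plate, border and surface. Extraembryonic tissues spread over the yolk and begin to take it up.

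Library totals ran from 14496102 to 21771745 counts in the freshly laid group and from 18257476 to 26805841 in normoxia. Values are given as CPM, a gene's counts relative to the total of its library after scaling for composition, and ± is the SD over the 5 libraries of a group unless it is called SE. Pairs of libraries from the same group correlated over genes (log2 CPM) at 0.916 to 0.966 in freshly laid embryos and at 0.944 to 0.979 in normoxia, and pairs across groups at 0.856 to 0.931. The spread was larger before incubation than after it: the median SD of log2 CPM over genes was 0.367 in freshly laid embryos and 0.265 in normoxia, and 70.8% of genes varied more in the freshly laid group. Freshly laid replicate 1 stood apart. It had the lowest total of the 10 libraries, 14496102 counts, and a count for 16723 genes, against 18029 to 19779 in the other 9. In it, 507 genes were over 2-fold below all other freshly laid libraries, against 34 to 141 such genes in each of the others. Without it, the median SD of the freshly laid group was 0.325 and the share of genes with the larger spread there 63.2%. In normoxia replicate 1, 247 genes were over 2-fold below all other normoxia libraries, against 23 to 78 such genes in each of the others. Without normoxia replicate 1, the median SD of normoxia was 0.224 and that share was 77.2%.

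**Figure D1:**
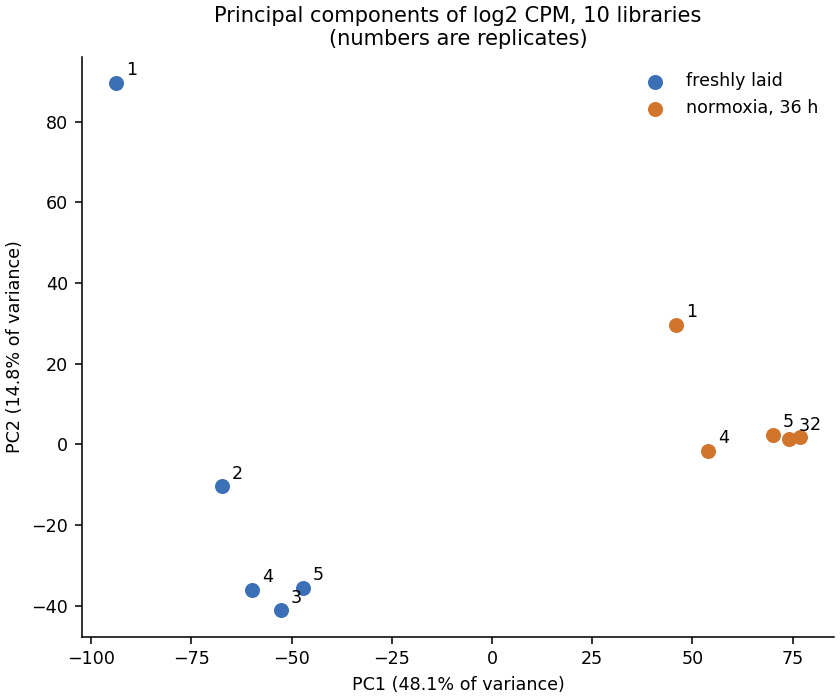
Each point is 1 library, placed by the first (x axis) and second (y axis) principal component of log2 CPM over the 10 libraries. The first component, with 48.1% of the variance, separates the groups, and the second, with 14.8%, sets freshly laid replicate 1 (89.55) apart from the other freshly laid libraries (-41.14 to -10.39). On the second, normoxia replicate 1 (29.65) also lies apart from the other normoxia libraries (-1.561 to 2.299).

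The tissue label was checked against 6 embryo markers, all in the file. TBXT, SOX2, CDH1 and POU5F1 were counted in both groups, and MSGN1 was at 0 in every freshly laid library. Summed over the 6 markers, the libraries held 119 to 218 CPM in freshly laid embryos and 128 to 182 CPM in normoxia. Of these 6 genes 2 were called higher and 1 lower, POU5F1, at 39.7 to 70.5 CPM in freshly laid embryos and 1.12 to 6.07 CPM in normoxia. Of 6 oocyte and germ cell markers 5 were in the file, with summed levels of 16.9 to 20.01 CPM and 19.996 to 32.9 CPM. Most of each sum was DDX4, at 13.1 to 16.9 CPM and then 17.02 to 30.1 CPM. Of the 3 tested markers 1, DDX4, was higher.

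Among the 16639 genes with enough counts, 31.2% passed an adjusted p of 0.05 in edgeR's quasi-likelihood test, 15.2% of them all as higher in normoxia and 16.1% as lower. Such genes are called higher or lower here, or said to have risen or fallen. Of all tested genes, 21.1% were both called and without overlap between the CPM ranges of the groups. Of the large changes more were rises: 588 called genes rose and 382 fell by over 4-fold, and 106 rose and 26 fell by over 16-fold. Of the genes called higher, 15.99% lay under 1 CPM in freshly laid embryos, beside 10.5% of all tested genes. Of the genes called lower, 10.6% lay under 1 CPM in normoxia, near the 9.62% of all tested genes. The normoxia titles carry 2 pairs of neighbouring numbers (replicates 2 and 3, 4 and 5), and with each pair summed to 1 library 2990 genes were called. The library names in the file header carry index numbers whose meaning is not stated, and within those of 11 or below (4 freshly laid, 2 normoxia) 1454 genes were called. Freshly laid replicate 1 carries 12, the only freshly laid library above 11, and normoxia replicates 1, 3 and 5 carry 13, 14 and 16.

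**Figure D2:**
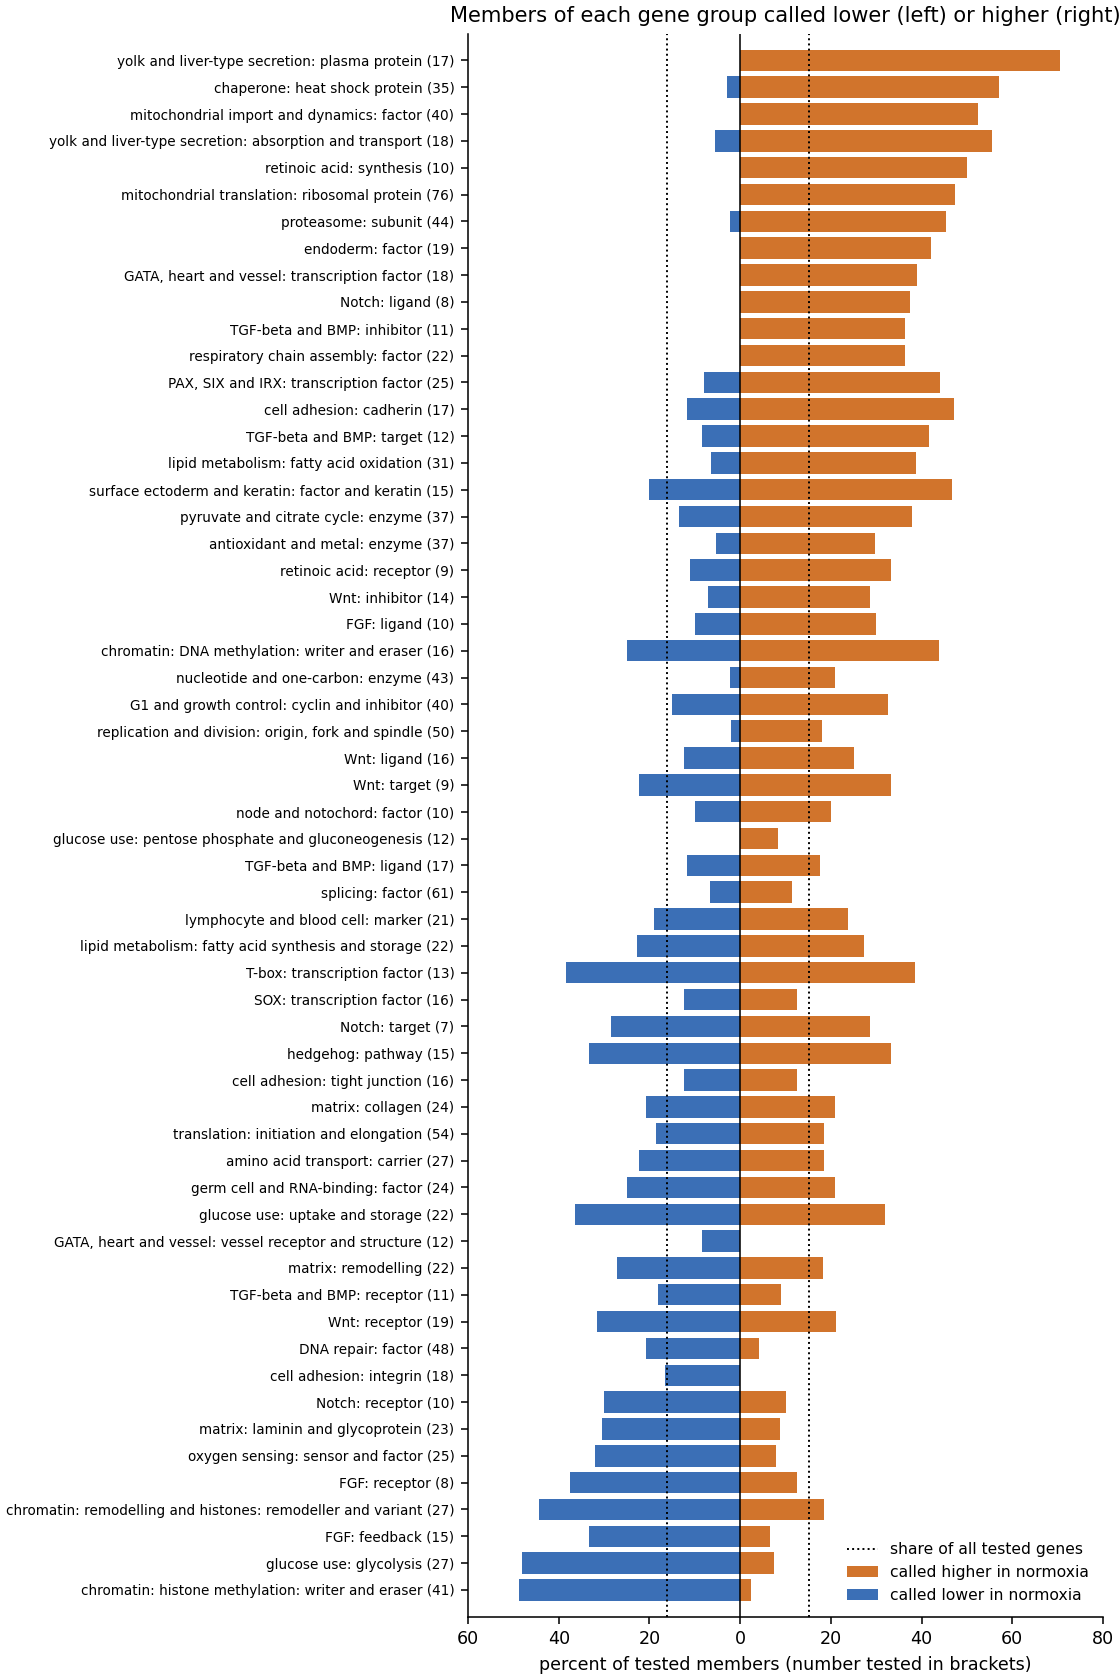
Each bar gives the percentage of tested members of a gene group that were called higher (right) or lower (left) in normoxia, with the number tested in brackets and dotted lines at the shares of all tested genes, 15.2% and 16.1%. Plasma proteins of yolk tissue, chaperones and mitochondrial import factors lie at the top, and histone methylation genes, glycolysis and feedback genes of FGF signalling at the bottom.

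The counts of every gene group below are to be read beside the shares of all tested genes, 15.2% called higher and 16.1% called lower. Where a gene group is given below with 0 members called by edgeR in one direction, DESeq2 also called 0. So did limma-voom, except for 1 vessel gene called higher. At an unadjusted p under 0.05, edgeR placed 2 integrins (higher), 1 plasma protein, 2 mitochondrial ribosomal proteins, 2 import factors and 1 assembly factor (all lower) in such a direction, and 0 members of the other groups.

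Organizer genes ranged widely among freshly laid embryos, and most were not called between the groups. CHRD, which encodes the BMP-binding protein chordin, had 0.251, 115, 491, 263 and 341 CPM in freshly laid replicates 1 to 5 and 136, 115, 155, 165 and 135 CPM in normoxia replicates 1 to 5. GSC, the homeobox gene goosecoid, had 0.0628, 16.04, 39.04, 19.3 and 22.7 CPM and then 13.8, 4.91, 16.9, 15.7 and 14.02 CPM, and DKK1, an inhibitor of Wnt coreceptors, had 0.0628, 20.4, 87.6, 41.4 and 37.4 CPM and then 25.4, 10.2, 21.5, 28.9996 and 26.9 CPM. All 3 genes were almost uncounted in freshly laid replicate 1 and highest in freshly laid replicate 3, so the groups overlap. The mesoderm gene TBXT ran the other way, with 84.5, 14.95, 21.5, 39.96 and 22.4 CPM in freshly laid embryos, highest in replicate 1, and 72.1, 58.9, 46.8, 54.3 and 68.9 CPM in normoxia. CER1, a secreted inhibitor of Nodal and BMP signals that was chosen after its values were seen, had 1.88, 12.2, 132, 57.4 and 44.8 CPM in freshly laid embryos and 28.5, 20.7, 18.1, 19.2 and 23.98 CPM in normoxia, again lowest in freshly laid replicate 1. None of these 5 genes was called.

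Leaving out freshly laid replicate 1 moved these results. Without it CHRD was called lower (log2 fold change -1.10, edgeR adjusted p = 0.0216, against -0.78 and 0.452 with it), as were CER1 (-1.48 and edgeR adjusted p = 0.0238) and the ligand FGF17 (-2.08 and edgeR adjusted p = 0.0357), and TBXT was called higher (1.28 and edgeR adjusted p = 0.0370). GSC and DKK1 stayed uncalled. FGF8 and LHX1 were called with all libraries. FGF8, a ligand of the gastrula and the tail bud, had 0.0628, 2.53, 9.29, 9.51 and 8.45 CPM in freshly laid embryos and 1.11, 0.967, 1.35, 0.532 and 0.477 CPM in normoxia (log2 fold change -2.74 ± 0.70, SE, edgeR adjusted p = 0.00739). It fell although freshly laid replicate 1 had the lowest value of all 10 libraries, and it was not called by limma-voom (adjusted p = 0.198). LHX1, a LIM homeobox factor of the organizer, fell from 35.5 ± 27.2 to 11.6 ± 2.903 CPM (n = 5 each), with the lowest freshly laid value (9.04 CPM) again in replicate 1. With the normoxia libraries of neighbouring sample numbers summed, LHX1 was not called (edgeR adjusted p = 0.0598).

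**Figure D3:**
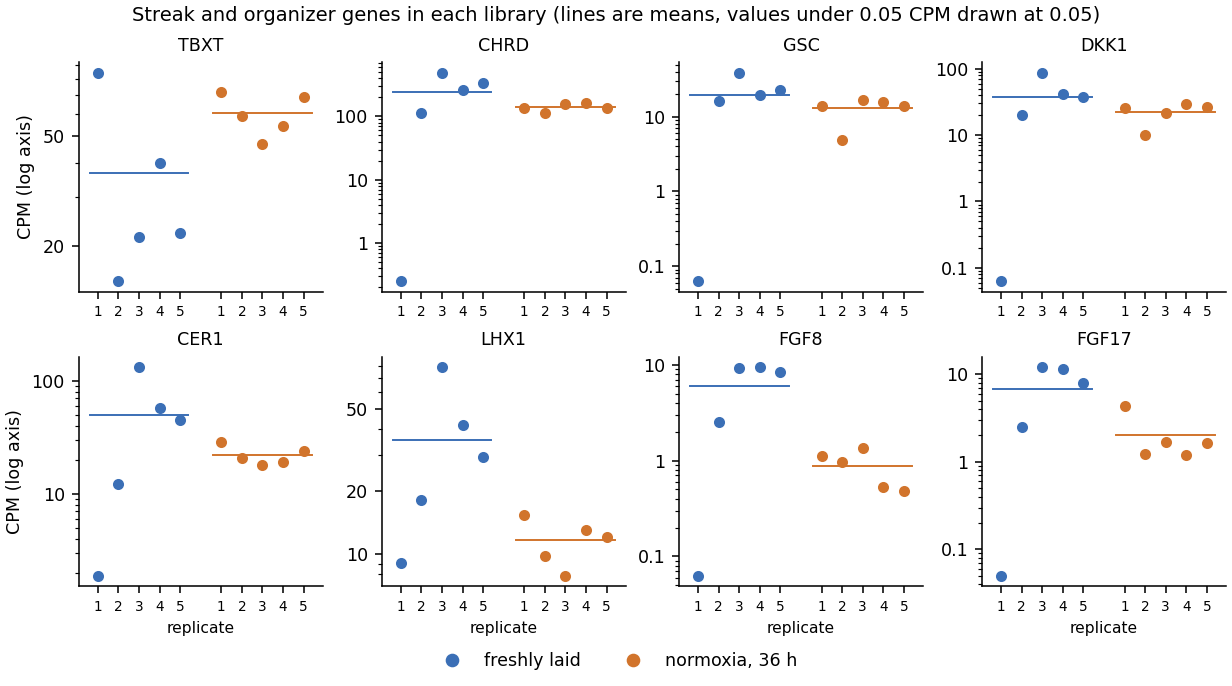
CPM of 8 genes in each library on a log axis, one panel per gene, with freshly laid replicates 1 to 5 on the left, normoxia replicates 1 to 5 on the right and lines at the group means. CHRD, GSC, DKK1, FGF8 and FGF17 are lowest of all 10 libraries in freshly laid replicate 1 (0.251 CPM or less), while TBXT is highest there (84.5 CPM). Values under 0.05 CPM are drawn at 0.05.

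Wnt proteins signal through frizzled receptors and LRP coreceptors, either by stabilising beta-catenin or by steering cell polarity and movement. Over the 4 roles listed here, 15 of 58 tested genes were higher and 11 lower, the 11 becoming 7 without normoxia replicate 4 or 5. Of 16 ligands 4 rose and 2 fell. WNT5A, which acts mainly on polarity and axis elongation, had 5.72, 6.21, 6.76, 7.67 and 5.55 CPM in freshly laid embryos and 35.7, 46.6, 35.9, 25.6 and 41.8 CPM in normoxia. The groups do not overlap and the log2 fold change was 2.54 ± 0.36 (SE, edgeR adjusted p = 8.24e-05). Its close relative WNT5B rose 4.83-fold, from 16.1 ± 5.39 to 77.7 ± 5.66 CPM. WNT8B fell from 2.71 ± 0.877 to 0.427 ± 0.165 CPM, and RSPO3, which strengthens Wnt signals at the receptor, fell 2.44-fold. WNT8A, a ligand of the gastrula margin, had 77.6 ± 46.2 and 91.3 ± 27.7 CPM and missed the threshold (edgeR adjusted p = 0.682).

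On the receiving side, 4 of 19 receptors and coreceptors rose and 6 fell. ROR2, a receptor of WNT5A, rose 2.104-fold from 34.2 ± 9.19 to 72.1 ± 12.4 CPM, FZD10 rose 2.44-fold, and LGR5, the receptor of R-spondins, rose from 1.66 ± 0.676 to 8.97 ± 3.16 CPM. The coreceptors of the beta-catenin branch went the other way: LRP5 fell from 51.3 ± 6.86 to 30.8 ± 6.502 CPM and LRP6 from 98.7 ± 15.6 to 62.2 ± 12.9 CPM. The 6 falls became 2 or 3 when freshly laid replicate 3 or 4 or normoxia replicate 2, 3, 4 or 5 was left out, and LRP5 and LRP6 stayed called in each of these cases. Of 14 inhibitors 4 rose, among them the secreted frizzled-related proteins SFRP1 (19.3 to 61.7 CPM) and FRZB (6.62 to 36.7 CPM), both higher. Among 9 targets, SP5, a direct target of the beta-catenin branch, had 2.45, 5.52, 9.41, 12.9 and 10.2 CPM in freshly laid embryos and 60.4, 50.1, 49.2, 52.1 and 44.96 CPM in normoxia. Every normoxia library lies over 3 times above the highest freshly laid library. TCF7L1, a repressor of Wnt targets, fell 2.87-fold, from 79.2 ± 20.1 to 27.6 ± 9.43 CPM. AXIN2, a negative feedback target, had 49.5 ± 29.1 and 72.03 ± 10.6 CPM and was called higher only without freshly laid replicate 1 (log2 fold change 0.93, edgeR adjusted p = 0.0115).

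FGF ligands act through tyrosine kinase receptors and the ERK pathway, which switches on its own inhibitors. Of 10 tested ligands 3 rose. FGF3, a ligand of the tail bud and the hindbrain, had 0.565, 0.0575, 0.362, 0.460 and 0.230 CPM in freshly laid embryos and 7.38, 2.75, 4.43, 4.48 and 5.01 CPM in normoxia (log2 fold change 3.83 ± 0.76, SE, edgeR adjusted p = 0.00126). It was thus under 1 CPM in every freshly laid library. Receptors and feedback genes moved down more often than up, with 1 of 8 receptors higher and 3 lower, and 1 of 15 feedback genes higher and 5 lower (3 lower without normoxia replicate 3). FGFR1, the main receptor of mesoderm, fell from 295 ± 70.8 to 139 ± 16.5 CPM, and FGFR3 from 298 ± 125 to 139 ± 24.2 CPM. FGFR2 had 35.02 ± 9.21 and 45.6 ± 6.74 CPM and was not called. SPRY2, an inhibitor of the pathway, fell 2.71-fold and the ETS factor ETV4, a readout of FGF signals, 2.31-fold, while the ERK phosphatase DUSP7 rose 2.86-fold. DUSP6, the phosphatase most often used as a readout of this pathway, had 44.8 ± 8.32 and 44.7 ± 6.39 CPM.

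BMP and Nodal ligands of the TGF-beta family act through SMAD proteins. BMP2, a ligand of ventral and extraembryonic tissue, had 8.23, 3.34, 10.4, 5.98 and 5.14 CPM in freshly laid embryos and 26.4, 19.8, 27.4, 22.3 and 26.3 CPM in normoxia, without overlap (log2 fold change 1.89 ± 0.41, SE, edgeR adjusted p = 0.00261). BMP4 had 41.4 ± 18.97 and 47.2 ± 13.1 CPM and was not called. GDF1, a partner ligand of Nodal, fell from 212 ± 46.2 to 72.7 ± 7.004 CPM. In all, 3 of 17 ligands were higher and 2 lower, beside 15.2% and 16.1% of all tested genes. The 2 falls became 1 without freshly laid replicate 3 or 4 or normoxia replicate 1, 2 or 3. Of 12 targets 5 were higher and 1 lower. The BMP targets ID3 and ID4, inhibitors of basic helix-loop-helix factors, rose from 265 ± 52.6 to 505 ± 85.4 CPM and from 7.21 ± 2.51 to 22.99 ± 1.07 CPM. Of 11 secreted inhibitors and modulators 4 rose, including BMPER (6.31 to 24.7 CPM), and the 4 became 2 without freshly laid replicate 2 or 4 or normoxia replicate 3, 4 or 5. The SMAD genes of the Nodal branch were both called, SMAD2 lower (63.3 to 33.6 CPM) and SMAD3 higher (28.2 to 47.9 CPM).

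Notch receptors are cut when a ligand on a neighbouring cell binds them, and the freed part turns on HES genes, some of which oscillate in presomitic mesoderm. Of 8 ligands and ligand partners 3 rose and 0 fell, whereas 3 of 10 receptors and receptor modifiers fell and 1 rose (2 without freshly laid replicate 1). DLL3, a ligand of presomitic mesoderm, rose from 1.74 ± 1.11 to 8.33 ± 2.35 CPM, and JAG1 2.14-fold. NOTCH1 had 64.8, 26.2, 29.9, 49.98 and 44.4 CPM in freshly laid embryos and 133, 93.5, 85.9, 76.8 and 62.03 CPM in normoxia, and NOTCH3 had 66.2, 69.9, 70.8, 121 and 111 CPM and then 44.02, 38.8, 28.98, 41.7 and 26.9 CPM. The first rose (log2 fold change 1.07 ± 0.24, SE), with freshly laid replicate 1 just above the lowest normoxia library, and the second fell (-1.28 ± 0.27, SE) without overlap. The targets split as well, with HES7, a gene of the segmentation clock, going from 0.763 ± 0.563 to 5.02 ± 1.87 CPM and HES4 from 77.6 ± 7.68 to 26.5 ± 3.995 CPM. LFNG, a glycosyltransferase that modifies the receptors, had 84.6 ± 17.9 and 60.8 ± 20.8 CPM and was not called.

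Retinoic acid is made from vitamin A in 2 oxidation steps and patterns trunk and hindbrain. Of 10 tested genes of its synthesis and supply 5 rose and 0 fell, with a median log2 fold change of 1.56 against 0.00 for all tested genes. RDH10, the enzyme of the initial step, had 23.7, 33.4, 20.1, 21.004 and 22.3 CPM in freshly laid embryos and 104, 83.2, 79.01, 87.8 and 79.95 CPM in normoxia, so that the lowest normoxia library lies over 2 times above the highest freshly laid library (log2 fold change 1.85 ± 0.16, SE, edgeR adjusted p = 7.79e-07). ALDH1A2, which carries out the following step in embryonic mesoderm, rose from 12.01 ± 4.09 to 47.04 ± 14.99 CPM. DHRS3, which converts retinal back to retinol, rose 1.97-fold. Of 5 listed genes of retinoic acid breakdown only 2 were tested, and CYP26A1, CYP26B1 and CYP26C1 were not matched by name. Among the receptors RARG fell from 130.0 ± 31.6 to 44.9 ± 14.5 CPM, and the orphan nuclear receptors NR2F1 and NR2F2, which retinoic acid induces in other vertebrates, rose from 0.104 ± 0.122 to 1.098 ± 0.691 CPM and from 0.978 ± 0.275 to 5.56 ± 2.72 CPM. In the hedgehog pathway 5 of 15 genes rose and 5 fell. IHH, the ligand of endoderm and yolk sac, rose from 0.9504 ± 0.0512 to 7.28 ± 3.102 CPM, whereas SHH, the ligand of notochord and floor plate, had 0.133 ± 0.118 and 0.412 ± 0.311 CPM and was not called. The effector GLI2 rose from 1.63 ± 1.37 to 10.02 ± 5.15 CPM (log2 fold change 2.61, and 3.22 without freshly laid replicate 3). GLI1, itself a target of the pathway, fell from 3.83 ± 0.957 to 0.949 ± 0.399 CPM, the inhibitor SUFU fell 1.73-fold and the coreceptor GAS1 rose 2.39-fold. The 5 falls became 3 without freshly laid replicate 4 or normoxia replicate 4 or 5.

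Factors that subdivide ectoderm and mesoderm were mostly scarce before incubation. Among 25 tested PAX, IRX, DLX and related factors 11 rose and 2 fell, with a median log2 fold change of 1.47, and only 4 of the 25 had over 10 CPM in freshly laid embryos. IRX2, an Iroquois factor of neural plate and border, had 0.251, 0.173, 0, 0 and 0.184 CPM in freshly laid embryos and 12.4, 5.88, 8.55, 9.27 and 6.63 CPM in normoxia (log2 fold change 6.07 ± 0.61, SE, edgeR adjusted p = 4.79e-06). It was near 0 in all freshly laid libraries and counted in all normoxia libraries. DLX5, a border factor, rose 3.85-fold from 9.47 ± 5.92 to 36.4 ± 11.5 CPM, IRX3 rose 4.94-fold, and GBX2, a factor of the hindbrain boundary, rose from 0.100 ± 0.0908 to 2.07 ± 1.37 CPM. PAX2 had 7.99 ± 4.61 and 10.4 ± 1.53 CPM and was not called. Of 13 T-box factors 5 rose and 5 fell, and 5 of the 13 had over 10 CPM in freshly laid embryos. With the neighbouring normoxia numbers summed 5 rose and 2 fell. The called T-box factors described here are all rises, and the falls are not described. TBX6, which directs paraxial mesoderm, rose from 0.879 ± 1.18 to 8.81 ± 3.25 CPM (log2 fold change 3.29, and 4.52 without freshly laid replicate 5, the highest of its group at 2.89 CPM). TBX2 rose 3.87-fold, and TBX1 and TBX18, factors of pharynx and somites, rose from 0.108 ± 0.0696 to 1.61 ± 1.28 CPM and from 0.396 ± 0.229 to 2.59 ± 1.24 CPM.

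The zinc finger factor SALL1 rose from 9.14 ± 5.07 to 40.6 ± 13.1 CPM. Of 16 SOX factors 2 rose and 2 fell, beside 15.2% and 16.1% of all tested genes. SOX9, a factor of crest and cartilage, rose from 3.74 ± 1.03 to 10.1 ± 3.66 CPM. SOX10, better known from neural crest and glia, fell from 2.34 ± 1.002 to 0.224 ± 0.151 CPM, and SOX2 had 4.98 ± 1.46 and 5.57 ± 2.35 CPM and was not called. The 2 rises became 1 without freshly laid replicate 1, 2 or 5 or normoxia replicate 2 or 3, and SOX9 stayed called in each of these cases.

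Factors of heart and lateral mesoderm rose in 7 of 18 cases and fell in 0. GATA5 rose 2.75-fold from 31.4 ± 9.92 to 86.3 ± 12.3 CPM, and OSR1, a factor of intermediate mesoderm, from 0.132 ± 0.114 to 1.44 ± 0.577 CPM. Blood and vessel genes varied widely among freshly laid embryos. HAND1, a factor of lateral and extraembryonic mesoderm, had 22.5, 4.37, 3.68, 40.5 and 107 CPM in freshly laid embryos and 80.3, 163, 244, 209 and 157 CPM in normoxia, and TAL1, a factor that starts blood formation, had 9.11, 0.863, 6.46, 20.2 and 35.03 CPM and then 16.2, 60.2, 41.7, 65.7 and 59.7 CPM. Freshly laid replicates 2 and 3 were low in both genes and replicate 5 was highest. Neither was called with all libraries (edgeR adjusted p = 0.0538 and 0.0541), and without freshly laid replicate 5 both were (log2 fold changes 3.25 and 2.40, edgeR adjusted p = 0.0120 and 0.0159). TAL1 was also called without normoxia replicate 1 (1.98, edgeR adjusted p = 0.0372). KDR, the VEGF receptor of endothelial precursors, had 122, 22.7, 18.8, 73.7 and 115 CPM and then 98.3, 92.6, 116, 126 and 149.8 CPM, with the same low libraries, and was not called. Of 12 receptors and structural genes of vessels 1 fell and 0 rose (1 without freshly laid replicate 4). Summed over 5 markers of blood and endothelium, the libraries held 24.5 to 163 CPM in freshly laid embryos and 120.0 to 270.3 CPM in normoxia. Of these 5 markers 1 was higher and 0 were lower, and their part in the results on lateral mesoderm was not tested.

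Endoderm factors rose in 8 of 19 cases and fell in 0 (1 without freshly laid replicate 1). FOXA1, a pioneer factor of endoderm, rose 7.36-fold from 1.78 ± 0.475 to 13.1 ± 4.36 CPM, and HNF4G from 3.95 ± 1.19 to 15.5 ± 4.28 CPM. FOXA2, which also marks the node, had 12.995 ± 8.89 and 11.5 ± 2.94 CPM and was not called, with its lowest value (1.44 CPM) in freshly laid replicate 1. In the surface ectoderm group, which includes keratins, 7 of 15 rose and 3 fell. TP63, the master factor of stratified epithelium, had 0.440, 0.575, 0.603, 0.613 and 1.74 CPM in freshly laid embryos and 18.3, 14.2, 19.01, 28.1 and 25.2 CPM in normoxia (log2 fold change 4.69 ± 0.53, SE, edgeR adjusted p = 1.35e-05). All freshly laid libraries were under 2 CPM. ZNF750, a factor that acts downstream of p63 in mammals, had 2 counts in the freshly laid group and 297 in normoxia, a ratio adjusted for library totals of 114 with a 95% counting interval of 31.2 to 944. GRHL1, a grainyhead factor of the same tissue, rose 2.85-fold. KRT8, a keratin of simple epithelium, fell from 551 ± 175 to 236 ± 48.1 CPM and the epithelial factor OVOL2 from 107 ± 6.19 to 51.1 ± 11.4 CPM. The 6 surface ectoderm markers summed to 451 to 914 CPM in freshly laid embryos and to 410.3 to 686 CPM in normoxia. KRT18 was the largest part of each sum, at 305 to 757 CPM and then 237 to 446 CPM. Of the 6 markers 3 were higher and 0 lower. Their part in these results was not tested.

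Several cadherins rose. Of 17 tested cadherins and their regulators 8 rose and 2 fell, with 1 fall left without each library except freshly laid replicate 5 or normoxia replicate 1. CDH11, a cadherin of mesenchyme, had 13.4, 1.67, 2.35, 22.3 and 35.6 CPM in freshly laid embryos and 64.9, 137, 117, 93.9 and 70.1 CPM in normoxia. It was lowest in freshly laid replicates 2 and 3, and no freshly laid library reached normoxia (log2 fold change 2.67 ± 0.65, SE, and 3.27 without freshly laid replicate 5). CDH6 and CDH7, cadherins of neural tube and crest, rose from 5.87 ± 2.39 to 26.6 ± 6.24 CPM and from 3.697 ± 2.56 to 28.5 ± 14.1 CPM, and SNAI2, a repressor that loosens epithelia, from 5.32 ± 3.48 to 35.4 ± 7.06 CPM. CDH1, the epithelial cadherin, had 65.8 ± 17.1 and 60.005 ± 10.7 CPM and was not called. Among tight junction and epithelial genes 2 of 16 rose and 2 fell, beside 15.2% and 16.1% of all tested genes. The 2 falls became 5 without freshly laid replicate 4. The junction proteins CGN (41.2 to 18.7 CPM) and TJP3 (43.6 to 22.4 CPM) fell, and CLDN23 rose from 0.801 to 5.44 CPM. Of 18 integrins 0 rose and 3 fell (16.7%), a share of falls near the 16.1% of all tested genes. Among the 3 were the laminin receptors ITGA6 (321 ± 72.5 to 119 ± 13.6 CPM) and ITGA7 (192 ± 68.01 to 59.5 ± 12.1 CPM). EPCAM, an adhesion protein of epithelia, fell from 1375 ± 382 to 797 ± 97.5 CPM, and its lowest freshly laid library (956 CPM) lies above its highest normoxia library (867 CPM).

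Of 69 matrix genes 11 were higher and 18 lower, beside 15.2% and 16.1% of all tested genes. FN1, the fibronectin on which mesoderm cells migrate, rose from 608 ± 179 to 1229 ± 227 CPM, and FBLN1, which binds it, 1.79-fold. TNC fell from 99.1 ± 39.2 to 30.7 ± 11.8 CPM, HAPLN1, which links hyaluronan to proteoglycans, from 578 ± 150.4 to 228 ± 75.98 CPM, and the basement membrane proteoglycan HSPG2 from 104 ± 22.1 to 48.3 ± 13.7 CPM. Of 24 collagens 5 rose and 5 fell, COL4A5 rising 1.73-fold and COL18A1 falling 1.62-fold. COL1A1 had 2.58, 5.35, 17.3, 18.7 and 13.7 CPM in freshly laid embryos and 1.49, 1.62, 1.59, 2.62 and 1.24 CPM in normoxia and fell as well. Its lowest freshly laid value lies in replicate 1, level with the highest normoxia library. Among enzymes that modify collagen, the prolyl hydroxylase P4HA1 fell from 171 ± 40.3 to 65.4 ± 5.62 CPM and the crosslinking enzyme LOXL1 from 14.3 ± 2.52 to 3.38 ± 1.45 CPM. Of the matrix proteases, ADAMTS1 rose 4.49-fold and MMP9 fell 2.83-fold, and the protease inhibitor TIMP3 rose 2.52-fold.

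Enzymes of histone methylation and their partners, with glycolysis, had the largest shares of falls among the gene groups counted. Histone methylation is written and erased by enzymes that set which genes can be transcribed. Of 41 such enzymes and their partners 20 were lower and 1 higher (median log2 fold change -0.43). The falls numbered 18 to 21 when each library was left out in turn and 13 with the neighbouring normoxia numbers summed. The single rise was lost without freshly laid replicate 2, 3 or 4 or normoxia replicate 2, 3, 4 or 5. JARID2, a partner of the Polycomb complex PRC2, had 188, 212, 239, 199 and 131 CPM in freshly laid embryos and 52.8, 46.4, 41.999, 46.3 and 42.2 CPM in normoxia (log2 fold change -2.08 ± 0.17, SE, edgeR adjusted p = 7.33e-07). Each freshly laid library lies over 2 times above every normoxia library. The methyltransferases NSD2 and DOT1L fell from 224 ± 31.9 to 57.2 ± 15.3 CPM and from 291 ± 96.7 to 113 ± 28.003 CPM, and the demethylase KDM4B from 68.7 ± 11.9 to 31.4 ± 2.75 CPM. EZH2, the catalytic subunit of PRC2, had 269.8 ± 23.4 and 219 ± 15.8 CPM. Its groups do not overlap, yet it missed the threshold (edgeR adjusted p = 0.0552). It was called lower without normoxia replicate 1 (log2 fold change -0.34, edgeR adjusted p = 0.0449).

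Enzymes and other factors of DNA methylation were called in 11 of 16 cases, 7 higher and 4 lower. TET2, which oxidises methylated cytosine, had 0.628, 0.863, 1.27, 3.27 and 1.65 CPM in freshly laid embryos and 9.498, 17.6, 11.1, 11.1 and 11.2 CPM in normoxia, and its relative TET1 had 20.4, 35.2, 44.5, 27.3 and 23.96 CPM and then 15.2, 23.5, 14.2, 13.7 and 13.6 CPM. TET2 rose without overlap (log2 fold change 2.96 ± 0.44, SE) and TET1 fell (-0.92 ± 0.21, SE), with normoxia replicate 2 the highest of its group in both. TET3 had 22.6 ± 3.93 and 29.7 ± 7.97 CPM and was not called. DNMT1, which copies methylation at replication, fell from 343 ± 57.04 to 196 ± 27.97 CPM and DNMT3A, which sets new methylation, from 56.5 ± 13.3 to 26.4 ± 5.71 CPM, whereas UHRF1, which guides DNMT1, rose 1.504-fold. GADD45G, linked to DNA demethylation and growth arrest, rose from 1.47 ± 0.783 to 9.51 ± 2.63 CPM. Among 27 remodellers and histone variants 12 fell and 5 rose, and the falls became 4 to 7 without freshly laid replicate 2 or 4 or normoxia replicate 2, 3 or 5, and 3 with the neighbouring normoxia numbers summed. The ATPase SMARCA2 fell from 362 ± 72.8 to 159 ± 48.1 CPM. The DNA-bending proteins split, HMGA1 falling from 57.6 ± 8.43 to 18.8 ± 4.898 CPM and HMGA2 and HMGB2 rising from 13.1 ± 1.94 to 39.6 ± 9.102 CPM and from 1051 ± 66.98 to 1532 ± 224 CPM.

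Of 24 germ cell and RNA-binding factors 5 rose and 6 fell. PIWIL2, which binds piRNAs and silences transposons in the germ line, fell from 65.7 ± 19.996 to 18.7 ± 5.06 CPM, and TFAP2C, a factor of germ cell fate and of trophoblast in mammals, from 149 ± 42.4 to 41.1 ± 18.2 CPM. DDX4, the germ cell helicase also called vasa, rose from 14.5 ± 1.55 to 26.6 ± 5.49 CPM. IGF2BP1 and IGF2BP3, which bind and stabilise messenger RNAs in embryos, fell 1.79-fold and 1.76-fold. LIN28A, which blocks the let-7 microRNAs, had 49.8 ± 9.96 and 25.4 ± 7.499 CPM and LIN28B 6.12 ± 1.67 and 5.88 ± 4.29 CPM, and neither was called.

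Among 21 lymphocyte and blood cell markers 5 rose and 4 fell, and the 5 became 3 without freshly laid replicate 1, 2 or 3 or normoxia replicate 3 or 5. The falls numbered 4 to 5 when each library was left out. With the neighbouring normoxia numbers summed 2 rose and 4 fell. The called genes described here are rises, and the falls are not described. The leukocyte phosphatase PTPRC rose from 0.174 ± 0.246 to 1.83 ± 0.908 CPM (log2 fold change 3.28, and 4.57 without freshly laid replicate 5), a call lost when the normoxia libraries of neighbouring sample numbers were summed (edgeR adjusted p = 0.0613). IKZF1, a lymphoid and early blood factor, rose 3.24-fold from 2.22 ± 0.717 to 7.22 ± 2.73 CPM, and HEMGN, a gene of blood precursors, from 0.892 ± 0.774 to 9.86 ± 5.76 CPM (adjusted p = 0.0514 with limma-voom). Normoxia replicate 1 had 2.65 CPM of IKZF1 and 0.627 CPM of HEMGN, within the freshly laid range in both. The erythroid factor GATA1 had 0.583 ± 0.523 and 1.19 ± 0.848 CPM and was not called. All 8 leukocyte markers were in the file. Their sums ran from 25.3 to 47.6 CPM in freshly laid embryos and from 24.2 to 41.0 CPM in normoxia. LCK alone was the largest part of each sum, at 13.1 to 39.9 CPM and then 11.1 to 27.0 CPM. Of the 6 tested markers 2 were higher and 0 lower, and the part of these markers in these results was not tested.

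Many genes of yolk tissue rose and differed strongly among normoxia embryos. In birds and reptiles the yolk sac endoderm takes up yolk, secretes plasma proteins much as the liver later does, and passes nutrients to the embryo. Of 17 tested plasma protein genes 12 rose and 0 fell (median log2 fold change 2.66), and of 18 genes of absorption and transport 10 rose and 1 fell. APOB, the apolipoprotein that packs lipid for export, had 0.565, 0.460, 4.04, 1.18 and 0.230 CPM in freshly laid embryos and 6.07, 196, 115, 6.696 and 84.5 CPM in normoxia. Normoxia replicates 2, 3 and 5 were over 10 times above replicates 1 and 4, and all 5 lay above every freshly laid library (a fitted rise of 63.9-fold, edgeR adjusted p = 0.00287, and a log2 fold change of 7.06 without freshly laid replicate 3 and 5.37 without normoxia replicate 2). APOA1 had 8.42, 20.9, 22.7, 10.8 and 6.29 CPM in freshly laid embryos and 45.8, 180.4, 101, 21.02 and 159 CPM in normoxia, PLG, the precursor of plasmin, had 33.6, 93.9, 75.8, 20.6 and 69.7 CPM in normoxia, and SERPINC1, antithrombin, had 7.52, 37.9, 21.3, 6.12 and 14.3 CPM. The same 2 libraries were the lowest in each. The fibrinogen chain FGB had 1.21, 57.8, 14.2, 1.15 and 8.06 CPM in normoxia against 0, 0.575, 1.81, 0.767 and 0.230 CPM before and was called (edgeR adjusted p = 0.0156). It lost its call without normoxia replicate 2 (log2 fold change 3.18 against 4.61, edgeR adjusted p = 0.0733) and with limma-voom (adjusted p = 0.0825), as did APOB with limma-voom (adjusted p = 0.0586). FGB reached 5.35 on the log2 scale when freshly laid replicate 3 was left out.

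The same 2 normoxia libraries were lowest in many genes of fatty acid oxidation, and in some groups outside yolk and fat use. Normoxia replicates 1 and 4 held the 2 lowest of the 5 normoxia values in 12 of 17 plasma protein genes, in 11 of 18 absorption genes and in 18 of 31 genes of fatty acid oxidation, against 14.02% of all tested genes. They were lowest in 17 of 37 pyruvate and citrate cycle genes, 8 of 19 endoderm factors and 11 of 37 antioxidant and metal genes. They were the 2 highest in 2, 0 and 0 of these. Among 22 genes of fatty acid synthesis and storage they were lowest in 2 and highest in 2. Among 41 histone methylation genes they were highest in 13 and lowest in 1, beside 12.3% highest among all tested genes. Similar shares were seen in other groups, such as germ cell and RNA-binding factors (9 of 24 highest, 0 lowest) and PAX, IRX, DLX and related factors (8 of 25 highest, 0 lowest). These 2 libraries were picked out after the values were seen. CPT1A, which brings long-chain fatty acids into mitochondria, had 10.9, 21.4, 14.2, 15.2 and 7.76 CPM in freshly laid embryos and 57.2, 135, 125, 44.3 and 95.7 CPM in normoxia (log2 fold change 2.72 ± 0.41, SE, edgeR adjusted p = 0.000162). ACAT1, which works on ketone bodies and isoleucine, had 331, 587, 601, 267 and 540.2 CPM in normoxia, and IDH1, the cytosolic isocitrate dehydrogenase, had 73.9, 183, 131, 63.6 and 122 CPM. The protease gene CTSL, which in yolk sac degrades yolk protein, had 143, 208, 655, 305 and 224 CPM and then 1230.2, 3468, 2947, 1160.3 and 2710.2 CPM. All 4 genes rose, by 6.58-fold, 2.66-fold, 4.48-fold and 7.503-fold, and in all 4 the lowest normoxia libraries were replicates 1 and 4, which still lie above every freshly laid library. The 5 yolk sac and liver-type markers in the file summed to 7.07 to 29.7 CPM in freshly laid embryos and to 37.2 to 624 CPM in normoxia, with all 4 tested ones higher. The 6 absorption markers summed to 14.7 to 27.8 CPM and 34.6 to 66.9 CPM, with 3 of 5 tested ones higher and 0 lower. Of the absorption markers FABP2 was at 0 in all freshly laid libraries. The part of these cell types in the rise of fatty acid oxidation was not tested.

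**Figure D4:**
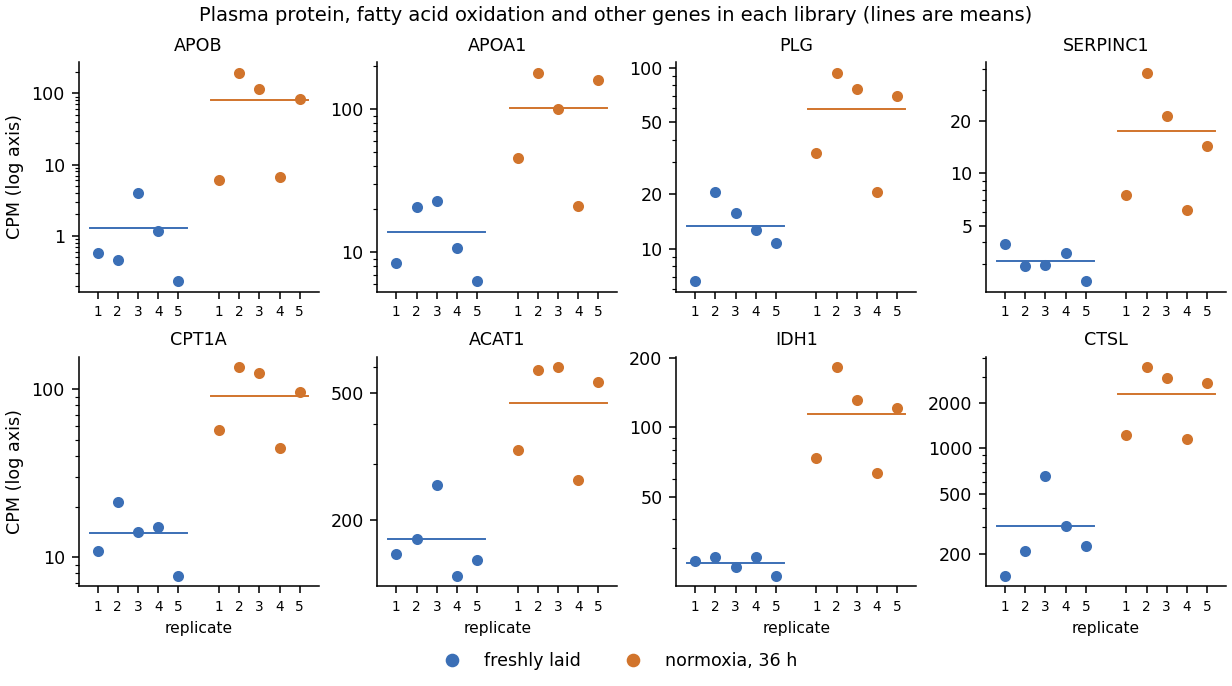
CPM of 8 genes in each library on a log axis, one panel per gene, with freshly laid replicates 1 to 5 on the left, normoxia replicates 1 to 5 on the right and lines at the group means. In every panel normoxia replicates 1 and 4 are the lowest of their group, from a wide gap in APOB (6.07 and 6.70 against 84.5 to 196 CPM) to a smaller one in IDH1 (73.9 and 63.6 against 122 to 183 CPM). The panels are a selection and not all genes follow: these libraries were lowest in 12 of 17 plasma protein genes and in 18 of 31 genes of fatty acid oxidation.

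Not every transport gene followed. SLC5A1, the sodium-coupled glucose carrier of absorptive epithelium, had 10.8, 54.2, 52.4, 34.2 and 15.6 CPM in freshly laid embryos and 411, 409, 350.2, 249.8 and 280.5 CPM in normoxia, a rise of 10.2-fold with normoxia replicates 4 and 5 the lowest of their group. The endocytic receptor LRP2 rose 2.51-fold. SLC34A2, a phosphate carrier, was the only member of the absorption group to fall, from 55.02 ± 18.5 to 8.42 ± 3.56 CPM.

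Of 31 tested genes of fatty acid oxidation 12 rose and 2 fell. Besides CPT1A, its regulator PPARA rose from 7.88 ± 1.71 to 27.5 ± 3.51 CPM, the carnitine carrier SLC25A20 1.89-fold and the trifunctional enzyme subunit HADHB 1.74-fold. The 2 falls became 1 without freshly laid replicate 2, 3 or 5 or normoxia replicate 3 or 4. Fatty acid synthesis and storage had 6 of 22 genes higher and 5 lower, the falls becoming 2 without freshly laid replicate 4 and 3 without normoxia replicate 5. The genes of this group described here are all rises. ELOVL5, which lengthens polyunsaturated fatty acids, rose from 8.14 ± 4.93 to 53.999 ± 24.7 CPM, FADS6 from 0.554 ± 0.334 to 6.05 ± 2.6004 CPM and the lipid droplet coat PLIN2 1.83-fold.

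Uptake and storage of glucose had 7 of 22 genes higher and 8 lower. The median log2 fold change of the 22 was 0.09, and 12 of them lay above 0. The members described in this paragraph are all falls, and the rises are not described here. PPP1R3B, which draws a phosphatase to glycogen and so favours its synthesis, had 159, 222, 184, 201 and 166 CPM in freshly laid embryos and 32.6, 31.1, 36.9, 30.1 and 41.1 CPM in normoxia. The groups lie far apart and the spread within each is small (log2 fold change -2.44 ± 0.17, SE, edgeR adjusted p = 2.19e-07). Its relative PPP1R3C fell from 23.3 ± 10.1 to 4.603 ± 1.44 CPM, the glycogen synthases GYS1 and GYS2 from 103 ± 22.5 to 53.3 ± 8.39 CPM and from 34.2 ± 7.57 to 3.96 ± 2.34 CPM, and the branching enzyme GBE1 from 45.5 ± 18.5 to 22.2 ± 4.11 CPM. Of 27 glycolysis genes 13 fell and 2 rose. The 13 falls ranged from 12 to 14 when each library was left out, and the 2 rises became 1 without normoxia replicate 4 and 0 without each other library except freshly laid replicate 3. HK2, the hexokinase bound to mitochondria, had 239.7, 222, 171, 130.2 and 191 CPM in freshly laid embryos and 40.2, 22.5, 20.9, 40.8 and 38.9 CPM in normoxia, and PFKFB3, which makes an activator of glycolysis, fell from 139.7 ± 29.1 to 36.4 ± 14.6 CPM. LDHB, the lactate dehydrogenase chain that favours pyruvate, fell from 2616 ± 248 to 1410.1 ± 369.7 CPM, and the lactate carrier SLC16A1 from 723 ± 43.3 to 446 ± 37.8 CPM. GAPDH, often used as a reference gene, had 2734 ± 718 and 2393 ± 466 CPM and was not called. The side branch of pentose phosphates and gluconeogenesis had 1 of 12 genes higher and 0 lower, and the single rise was lost without freshly laid replicate 4 or 5 or normoxia replicate 2 or 3. Transketolase, TKT, had 397 ± 65.2 and 373 ± 54.6 CPM.

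Around pyruvate and the citrate cycle 14 of 37 genes rose and 5 fell, and the rises became 9 without freshly laid replicate 4 or normoxia replicate 5. MPC1, a subunit of the carrier that takes pyruvate into mitochondria, rose from 17.4 ± 3.07 to 65.8 ± 17.98 CPM, and the cycle enzyme SUCLG1 1.94-fold. PDK2, a kinase that shuts off pyruvate dehydrogenase, fell from 83.2 ± 15.4 to 25.7 ± 5.98 CPM. With all libraries, the calls in the 3 groups of nuclear genes that build mitochondria were rises, though 40 of 76, 19 of 40 and 14 of 22 members were not called. Among 76 ribosomal proteins of mitochondria 36 rose and 0 fell (24 to 43 rises when each library was left out, 20 with the neighbouring normoxia numbers summed, and 1 fall without freshly laid replicate 4 or normoxia replicate 2). MRPL18 rose from 60.4 ± 7.89 to 121 ± 9.65 CPM, MRPS26 from 61.7 ± 15.4 to 117 ± 5.92 CPM and MRPL43 from 22.98 ± 8.17 to 53.8 ± 12.5 CPM. Of 40 factors of import and dynamics 21 rose and 0 fell, with 17 to 22 rises when each library was left out, and 1 fall appeared without freshly laid replicate 1. TOMM34, TIMM8B and TIMM22, parts of the import machinery, rose 3.37-fold, 2.66-fold and 2.41-fold. Of 39 assembly factors listed for the respiratory chain 22 were matched by name and tested. Of these 8 rose and 0 fell, 5 rising and 1 falling without freshly laid replicate 1, and 1 falling without normoxia replicate 1. The coactivator PPARGC1A, which drives the building of mitochondria, rose from 0.150 ± 0.147 to 3.75 ± 1.98 CPM, and HIGD1A, a protein of the respiratory supercomplexes, from 14.9 ± 4.37 to 50.3 ± 15.6 CPM. TFAM, which packs mitochondrial DNA, had 48.3 ± 8.67 and 55.7 ± 7.28 CPM and was not called.

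Enzymes of nucleotides and folate had 9 of 43 genes higher and 1 lower (2 without freshly laid replicate 3), and the 9 became 5 without freshly laid replicate 3 or 4 or normoxia replicate 4 or 5. RRM2, the ribonucleotide reductase subunit that limits the making of deoxynucleotides, rose from 106 ± 21.4 to 258 ± 66.6 CPM, UMPS 1.86-fold and TK1 1.68-fold. Of 27 amino acid carriers 5 rose and 6 fell, beside 15.2% and 16.1% of all tested genes. The 5 rises became 3 without freshly laid replicate 2 or 4. SLC6A15 fell from 57.99 ± 13.9 to 13.2 ± 2.02 CPM, SLC38A1 fell 2.96-fold and SLC7A6 rose 1.97-fold.

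Of 35 tested chaperones 20 rose and 1 fell, with 15 to 19 rises when each library was left out and 11 with the neighbouring normoxia numbers summed. The single fall was lost without freshly laid replicate 3, 4 or 5 or normoxia replicate 2, 3 or 5. CRYAB, a small heat shock protein, had 4.02, 1.04, 3.32, 0.562 and 1.699 CPM in freshly laid embryos and 12.5, 14.9, 33.6, 72.1 and 57.5 CPM in normoxia (log2 fold change 4.17 ± 0.67, SE, edgeR adjusted p = 0.000245). It was over 3 times higher in each normoxia library than in any freshly laid library, and normoxia replicates 4 and 5 were highest. HSPA8, the constitutive heat shock protein of the cytosol, rose from 1221 ± 181 to 2164 ± 102 CPM, the cochaperones HSPH1 and DNAJA1 from 71.7 ± 10.9 to 162 ± 38.4 CPM and from 221 ± 28.4 to 379.7 ± 28.9 CPM, and CCT5, a subunit of the chaperonin that folds actin and tubulin, 1.49-fold. Of the chaperones of the endoplasmic reticulum, HSP90B1 rose from 421 ± 66.7 to 1091 ± 88.9 CPM and CALR from 732 ± 124 to 2129.6 ± 214 CPM. The proteasome had 20 of 44 subunits higher and 1 lower. That count depended on single libraries, with 12 higher without freshly laid replicate 1, 10 without freshly laid replicate 4 or normoxia replicate 4 and 11 without normoxia replicate 5, and it was 6 with the neighbouring normoxia numbers summed. PSMD10 rose from 17.05 ± 1.51 to 43.6 ± 6.65 CPM and PSMA6 1.71-fold, while the activator subunit PSME1 fell 1.61-fold.

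Of 54 initiation and elongation factors of translation 10 were higher and 10 lower, near the 15.2% and 16.1% of all tested genes. EIF3A, a scaffold of the initiation complex, fell from 504 ± 49.9 to 301 ± 19.6 CPM, EEF2, which moves the ribosome along, from 5293 ± 1266 to 3115 ± 531 CPM, and EIF4EBP2, a repressor of cap-dependent initiation, from 24.1 ± 7.88 to 9.05 ± 1.83 CPM. EIF1B rose 1.47-fold. Among genes not named by a locus number, EEF1A1 was the most counted per length in both groups (6496 and 6182 CPM per kb of exon). It had 12103 ± 2243 and 11516 ± 1681 CPM and was not called. Of 61 splicing factors 7 were higher and 4 lower, beside 15.2% and 16.1% of all tested genes, and the 7 became 4 without freshly laid replicate 2 or 4 or normoxia replicate 2, 3 or 5. QKI, which also steers mesoderm and muscle transcripts, fell from 328 ± 72.3 to 158 ± 37.5 CPM, and SNRPG, a core protein of the spliceosome, rose from 78.1 ± 22.2 to 147 ± 11.2 CPM.

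Regulators of the G1 phase and of growth were higher in 13 of 40 cases and lower in 6. CCND1, the cyclin that moves cells into division, rose from 20.01 ± 4.99 to 44.7 ± 8.21 CPM and CCNE2 2.04-fold. Among inhibitors of the cycle, BTG2 rose from 7.54 ± 1.48 to 39.3 ± 19.6 CPM, CDKN1C from 17.4 ± 3.53 to 33.3 ± 3.48 CPM and CDKN1B from 3.65 ± 0.547 to 7.62 ± 0.787 CPM. MYC had 34.5, 20.2, 13.5, 17.99 and 25.9 CPM in freshly laid embryos and 40.98, 37.3, 37.7, 47.1 and 49.01 CPM in normoxia, and MYCL had 212, 178, 179, 218 and 221 CPM and then 59.7, 56.8, 74.6, 71.1 and 56.2 CPM. Neither gene overlaps between the groups, and they moved apart (log2 fold changes 0.92 ± 0.25 and -1.66 ± 0.14, SE). MNT, which opposes MYC at its targets, fell 2.15-fold. Of 50 replication and division genes 9 rose and 1 fell, beside 15.2% and 16.1% of all tested genes. The fall was lost without freshly laid replicate 1 or 2 or normoxia replicate 2. The origin subunit ORC6 rose from 58.2 ± 6.86 to 108 ± 8.51 CPM, CDC45 1.78-fold and the clamp loader subunit RFC2 1.54-fold, whereas the division marker MKI67 had 104 ± 15.4 and 122 ± 8.81 CPM and was not called. DNA repair had 2 of 48 genes higher and 10 lower, the falls becoming 6 without freshly laid replicate 1 or normoxia replicate 3. PARP1, which senses broken DNA, fell from 1047 ± 135 to 465 ± 106 CPM, and the damage kinase ATM 1.86-fold.

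Genes of oxygen sensing were called lower more often than higher, though the group as a whole did not shift down. Hypoxia-inducible factors pair an oxygen-labile alpha subunit, encoded by HIF1A, EPAS1 or HIF3A, with a stable partner, and prolyl hydroxylases mark the alpha subunits for destruction when oxygen is present. Of 25 tested genes of this group 2 rose and 8 fell, beside 15.2% and 16.1% of all tested genes. The median log2 fold change of the 25 was 0.16, and 13 of them lay above 0. EPAS1, which encodes HIF-2 alpha, had 78.8, 78.8, 157, 124 and 77.99 CPM in freshly laid embryos and 549.6, 929, 523, 431 and 679.9 CPM in normoxia. The lowest normoxia library lies over 2 times above the highest freshly laid library (log2 fold change 2.59 ± 0.44, SE, edgeR adjusted p = 0.000383). HIF3A, some forms of which inhibit the others, had 94.9, 80.3, 106, 126 and 120.4 CPM and then 53.03, 53.2, 50.1, 47.8 and 38.7 CPM and fell (-1.12 ± 0.14, SE, edgeR adjusted p = 2.55e-05). The hydroxylase EGLN1 fell from 32.997 ± 3.47 to 16.8 ± 1.31 CPM. ANKRD37, a target of these factors in mammals, had 50.9, 58.4, 179, 115 and 49.7 CPM in freshly laid embryos and 3.18, 2.59, 5.33, 7.23 and 8.68 CPM in normoxia. All freshly laid libraries lie over 5 times above the highest normoxia library, and freshly laid replicates 3 and 4 were highest. CA9, a carbonic anhydrase and another such target, fell from 5.39 ± 2.26 to 1.17 ± 0.442 CPM, and the repressor BHLHE40 fell 2.06-fold. NDRG1, also a target in mammals, had 874, 203, 302, 403 and 257 CPM in freshly laid embryos, with replicate 1 far above the rest, and 733, 378, 448, 853 and 590.2 CPM in normoxia. It was not called, and without freshly laid replicate 1 it was called higher (log2 fold change 1.04, edgeR adjusted p = 0.0205). Among 37 antioxidant and metal genes 11 rose and 2 fell, the 2 falls becoming 0 or 1 without each library other than freshly laid replicate 5. NFE2L2, the factor that switches on antioxidant genes, rose from 8.66 ± 2.24 to 37.1 ± 12.9 CPM, and PRDX3, the mitochondrial peroxiredoxin, from 24.8 ± 3.65 to 63.5 ± 9.86 CPM.

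In 7 pairs of closely related genes described above, chosen after their values were seen, the members moved in opposite directions. EPAS1, NOTCH1, SMAD3, TET2, HMGA2, MYC and GLI2 were called higher, and HIF3A, NOTCH3, SMAD2, TET1, HMGA1, MYCL and GLI1 lower. Because the pairs were picked for this pattern, it is a description without a test.

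**Figure D5:**
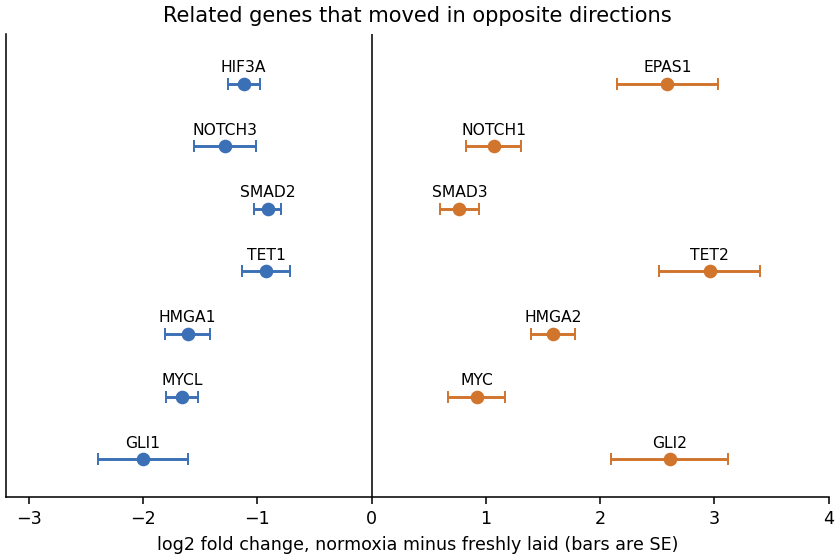
Log2 fold change of normoxia against freshly laid embryos (x axis) for 7 pairs of related genes, 1 pair per line, with points for the fitted value and bars for its SE. Members called higher (right) run from 0.77 for SMAD3 to 2.96 for TET2, and members called lower (left) reach from GLI1, the farthest, to SMAD2 at -0.91.

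The largest single changes included genes outside these groups. SPAM1, a gene of the hyaluronidase family matched to its locus through the gene ID, had 1 count in the freshly laid group and 1034 in normoxia, where the libraries held 8.77, 14.2, 8.34, 1.06 and 10.5 CPM, lowest in replicate 4. The ratio, adjusted for library totals, was 793, with a 95% interval of 142 to 31340.4 that covers counting error only. CA7, a carbonic anhydrase, went from 1 count to 186 (ratio 143, interval 25.3 to 5662), and GNG13, a G protein gamma subunit, from 2 to 267 (102, 28.1 to 849). The single counts of SPAM1 and CA7 both lie in freshly laid replicate 4, and the other freshly laid libraries are at 0 for both. Large falls were seen in PPP1R32 (13.5 ± 3.28 to 0.765 ± 0.237 CPM), PARP6 (8.13 ± 3.46 to 0.562 ± 0.316 CPM) and NRIP3 (4.405 ± 2.25 to 0.309 ± 0.551 CPM, log2 fold change -3.83, and -5.88 without normoxia replicate 5).

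Among called genes not named by a locus number, the enzymes ENO1 and PKM fell most in mean CPM, by 3.47-fold and 3.84-fold. PKM had 5751, 6489, 5884, 5946 and 6181 CPM in freshly laid embryos and 2178, 843, 1019, 2154 and 1674 CPM in normoxia, lowest in normoxia replicates 2 and 3. RNASEH1, which removes RNA from RNA-DNA hybrids, fell from 1207, 1306, 1064, 977 and 953 CPM in freshly laid replicates 1 to 5 to 116, 94.3, 128, 169 and 176 CPM in normoxia (log2 fold change -3.01 ± 0.27, SE, edgeR adjusted p = 1.57e-06). Its lowest freshly laid library is over 5 times the highest normoxia library. Cytoskeletal genes were among the shifts in both directions: ACTB, the cytoplasmic actin, fell from 8705 ± 1488 to 5668 ± 1219.6 CPM and the actin bundler FSCN1 from 1688 ± 241 to 795 ± 214 CPM, while TMSB4X, which binds actin monomers, rose from 802 ± 114 to 1751 ± 293 CPM. IGFBP2, which binds insulin-like growth factors, fell 2.26-fold, and the RNA helicase DDX5 rose 1.92-fold. Per kb of exon, ENO1 had 5859 and 1689 CPM before and after and RPLP0, a protein of the large ribosomal subunit, 2697 and 3058, so the enolase stood above the ribosomal gene in freshly laid embryos and below it in normoxia.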

How the data were processed

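The authors deposited 1 table of read counts per gene for whole embryos. Per the submitters' processing notes STAR aligned the reads and featureCounts counted them. Per the file headers featureCounts was version 1.6.2, with strand setting 2, a minimum mapping quality of 10 and the annotation rCheMyd1.pri, so reads that fit several near-identical genes were largely dropped. The trimming is not given in the sources used here. Of 23730 named genes 8844 carry locus numbers, and 155 of these were named through their gene ID in a RefSeq gene table. The row with no gene name, at most 0.334% of a library, and 3 count columns that match no listed sample were left out.

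Counts of all 15 libraries were fitted in R 4.3.3 with edgeR 4.0.16 (quasi-likelihood F test, two-sided, 1 mean per group, 12 residual degrees of freedom, TMM scaling, filterByExpr), and the 5 normoxia libraries were tested against the 5 freshly laid ones. The Benjamini-Hochberg adjustment ran over 16639 genes, with calls under 0.05. CPM use the scaled library totals. A simulation with the mean counts and library totals of these data, over 16639 genes, called 80% of simulated falls and 78% of simulated rises of 2 log2 units, 38% and 46% of those of 1 unit, and 3.97% of its calls were unchanged genes. Only a small part of its genes was changed, against 31.2% called in the data, and each gene had the same spread in all groups. Its rates therefore do not carry over to the real comparison. Alternatives used limma 3.58.1 and DESeq2 1.42.0. The gene groups hold 1559 genes in 59 groups, of which 1342 were tested. Groups and comparison were chosen with earlier results of these data known, so no p is given for a group. Genes named are the key genes of each group whatever their result and up to 6 others per group by adjusted p. Genes that kept a locus number as name were left out of the following rankings. Named too are the 15 largest rises and falls in log2 fold change among called genes whose groups do not overlap in CPM. These also had to pass a floor on counts in the higher group, so their lack of overlap was a condition of the choice. The list further holds the 10 largest rises and falls in mean CPM among called genes, the 10 most variable genes of each group and the most counted genes per length. Some of these genes are not reported here. Replicates are numbered in accession order. Intervals cover counting error only.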

Additional observations from a re-analysis of the deposited data

Results flagged for a closer look

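Among the genes described, 40 of 480 values per gene and group stood far from the other 4 libraries of their group, measured as the gap to the nearest value over the whole range. Chance gives about 1 in 20 for groups not chosen by their values. Part of these genes were chosen by their values, so the count is a description and not a comparison with chance. In freshly laid embryos, replicate 1 was lowest for TBX18 (0 CPM). Replicate 2 was highest for RDH10 (33.4 CPM) and RFC2 (52.6 CPM) and lowest for IKZF1 (0.978 CPM). Replicate 3 was highest for APOB (4.04 CPM), NFE2L2 (12.6 CPM) and PPP1R3C (40.9 CPM) and lowest for FGFR1 (169.9 CPM) and IGF2BP1 (384 CPM). Replicate 4 was highest for GATA1 (1.48 CPM) and, with 1 count each, for CA7 (0.0511 CPM) and SPAM1 (0.0511 CPM). Replicate 5 was highest for PSME1 (143 CPM), PTPRC (0.597 CPM) and TP63 (1.74 CPM) and lowest for BTG2 (5.004 CPM).

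In normoxia, replicate 1 stood above the rest for EIF3A (336 CPM), FGF17 (4.29 CPM), GBX2 (4.48 CPM), GLI2 (18.996 CPM), ITGA6 (143 CPM), NSD2 (84.3 CPM) and TK1 (408 CPM) and below it for MRPL43 (32.0 CPM). Replicate 2 stood above the rest for FGB (57.8 CPM), LIN28B (13.5 CPM), TET1 (23.5 CPM) and TET2 (17.6 CPM) and below it for DDX4 (17.02 CPM), EPCAM (627 CPM) and GSC (4.91 CPM). Replicate 3 had the high value of CA9 (1.94 CPM), and replicate 4 those of COL1A1 (2.62 CPM) and KRT8 (319.6 CPM). Replicate 5 had those of NRIP3 (1.29 CPM), PSMA6 (279 CPM), PTPRC (3.43 CPM), SUCLG1 (193 CPM), TFAM (68.4 CPM) and TMSB4X (2249 CPM).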

How the results depend on the processing

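The count of 5193 called genes lay between 4203 and 5902 under 9 other settings of scaling, filter, test, libraries and covariate, among them 5902 with DESeq2 and 5484 with limma-voom. Leaving out each library in turn gave 4083 to 5098 called genes, 1952 to 2467 higher and 2131 to 2631 lower. With the normoxia libraries of neighbouring title numbers summed, 2990 genes were called, 1409 higher and 1581 lower, and this setting leaves 3 normoxia libraries. Among libraries with an index number of 11 or below, 4 freshly laid and 2 normoxia, 1454 genes were called, 648 higher and 806 lower. The index settings were chosen after seeing the data. Of 208 called genes described here 207 stayed called without each library, the exception being FGB, and 134 under every setting, while 71 lost their call among the lower index numbers. Many of these genes were chosen for a small adjusted p or a large change, so their stability does not carry over to all calls. Of all 5193 called genes, 77.8% stayed called without normoxia replicate 5, the smallest share, and 89.6% without normoxia replicate 1, the largest. In 5034 recomputed gene values no gene changed sign where either fit called it, 81 lost their call and 28 gained one. Uncalled genes could change sign, such as CHRD (log2 change -0.78, and 0.98 with limma-voom) and BMP4 (0.19, and -0.02 without freshly laid replicate 2). HAND1 and TAL1 gained a call with DESeq2 and with limma-voom, LIN28A and EZH2 with both as well, and TBXT with limma-voom. No paired analysis was possible because the labels give no replicate numbers that the groups share. With a block on the title number in steps of 50, a guess that the labels do not state, 4203 genes were called, 75.7% of the 5193 stayed called, and PTPRC lost its call (log2 change 2.98, edgeR adjusted p = 0.0573). At these library totals, genes under 1 CPM rest on few reads.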
